A study of Homo sapiens with 4 samples.

Results

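The aminoacyl-tRNA synthetase genes were examined in RNA-seq of HCT116 cells, a human colorectal cancer cell line, that had been transfected with an antisense oligonucleotide (ASO). The anti-GAA ASO is directed at tandem GAA repeats in RNA, and the comparison asks which transcripts differed in level after its transfection relative to a control ASO. The labels list 2 libraries of cells given the anti-GAA ASO and 2 of cells given the control ASO, all from HCT116 in RPMI medium and all with 48 h of transfection, while the methods of the study give a shorter transfection. No library came from untransfected cells, so an effect shared by both ASOs cannot be told apart from the state of the line. Nothing in the labels places the libraries in separate cultures, so p measures only the spread between these libraries. The 38 genes were chosen by name: 19 cytosolic enzymes, 3 scaffold proteins of the multisynthetase complex (AIMP1, AIMP2 and EEF1E1) and 16 mitochondrial enzymes, out of 63677 genes in the count table. All 38 had a row and all 38 passed the filter on low counts, which left 15116 genes for testing.

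Aminoacyl-tRNA synthetases attach each amino acid to its tRNA, which the ribosome then uses to read a codon. The cytosolic and the mitochondrial sets are encoded by separate nuclear genes for most amino acids, while GARS1 and KARS1 each supply both compartments from one gene. Several cytosolic enzymes are held in the multisynthetase complex, and when uncharged tRNA accumulates the kinase GCN2 (EIF2AK4) raises translation of the transcription factor ATF4, which is known to increase transcription of many cytosolic synthetase genes.

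Libraries held between 10538284 (anti-GAA replicate 1) and 17894953 counts (anti-GAA replicate 2), with 15347298 and 15924742 counts in control replicates 1 and 2. Levels are counts per 1000000 counts of the library (CPM), with library sizes scaled by the trimmed mean of M-values (TMM). Of 8 epithelial markers, 6 were at 1 CPM or more in every library, among them EPCAM at 628 to 740 CPM, while VIL1 was at or near 0 and LGALS4 passed 1 CPM in 1 library. Of 5 markers of blood, endothelium and fibroblasts, PTPRC, CD3E, PECAM1 and COL3A1 were at or near 0 and COL1A1 lay between 10.1 and 14.6 CPM.

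Because the anti-GAA ASO is directed at GAA repeats, the longest uninterrupted GAA run was located on the RNA strand of the longest annotated transcript of each member. Runs of at least 9 nt were present in 8 of the 38 members (21.1%), against 2965 of 14751 tested genes with an annotated transcript (20.1%). They lay in 7 of 19 cytosolic enzymes and in AIMP1, and in 0 of 16 mitochondrial enzymes. The stretches of 7 of them are shown as examples of how GAA runs sit in synthetase transcripts. Capitals mark the run, and coordinates are on GRCh38, from GENCODE 44.
LARS1: ttaccattGAAGAAGAAGAAGAtgatggat
EPRS1: gacaaagatAAGAAGAAGAAagaaaaaga
IARS1: tatgtgaagGAAGAAGAAGgcacagggg
KARS1: ttataaatcAGAAGAAGAAtttattcat
TARS1: caaacaggcAGAAGAAGAAttttaatga
AIMP1: ctgaatcctAAGAAGAAGAtttgggagc
FARSB: aaaaaaaaaAAGAAGAAGtagctaaca
The longest run, 14 nt at chr5:146112440-146112453 (minus strand), belonged to LARS1, the leucine enzyme, and lay in an intron of its canonical transcript but inside a longer annotated one. A run of 11 nt lay in coding exon 20 of 32 of EPRS1 (chr1:219987283-219987293, minus strand). Runs of 10 nt lay in coding sequence of IARS1 (exon 10 of 34, chr9:92274464-92274473, minus strand), KARS1 (exon 5 of 14, chr16:75636077-75636086, minus strand), TARS1 (exon 19 of 19, chr5:33467693-33467702, plus strand) and AIMP1 (exon 7 of 7, chr4:106347552-106347561, plus strand). The run of FARSB, of 9 nt, lay in its last exon outside the coding sequence (chr2:222570522-222570530, minus strand).

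The letters TGATGNAA are a core shared by many C/EBP-ATF elements to which ATF4 binds as a dimer. They were searched on both strands of promoter windows from RefSeq (250 bases before to 50 after the RefSeq start, GRCh38.p14). A window was found for 33 of the 38 members. The motif was present in 8 of these 33 (24.2%), against 290 of 10558 tested genes with a window (2.75%). Over all 27305 genes with a window it was present in 1217 (4.46%). Of the 16 cytosolic enzymes with a window 7 held it, and of the 14 mitochondrial enzymes with a window only YARS2 did. The matches are shown because 7 of the 8 belong to cytosolic enzymes. They are written in the direction of the gene, with the motif in capitals, so that a match on the opposite strand starts with TT.
AARS1: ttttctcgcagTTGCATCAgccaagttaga
CARS1: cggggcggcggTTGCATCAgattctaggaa
GARS1: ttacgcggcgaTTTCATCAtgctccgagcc
IARS1: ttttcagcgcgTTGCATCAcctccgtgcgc
MARS1: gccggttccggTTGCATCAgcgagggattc
NARS1: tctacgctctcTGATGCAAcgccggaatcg
TARS1: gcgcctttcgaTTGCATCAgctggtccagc
YARS2: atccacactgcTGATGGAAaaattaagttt
The stretch of GARS1 is chr7:30594834-30594863 on the plus strand, that of AARS1 is chr16:70289675-70289704 on the minus strand, and that of NARS1 is chr18:57621804-57621833 on the minus strand. All 7 cytosolic genes with the motif belong to the 11 enzymes listed as amino acid response genes (AARS1, CARS1, EPRS1, GARS1, IARS1, MARS1, NARS1, SARS1, TARS1, WARS1 and YARS1), 10 of which had a window. Of the 6 other cytosolic enzymes with a window, 0 held it. The list holds enzymes known as ATF4 genes, so the list and the motif are not independent. A match is a description of letters in these windows, and binding was not measured.

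Messenger RNA of the cytosolic enzymes was far more abundant than that of the mitochondrial ones. Per kilobase of canonical transcript, the median level in the control libraries was 74.5 CPM per kb over the 19 cytosolic enzymes and 9.56 CPM per kb over the 16 mitochondrial enzymes. KARS1, the lysine enzyme of both compartments, stood highest at 338 ± 91.5 CPM per kb (SD, n = 2), with 273 and 402 CPM per kb in control replicates 1 and 2. TARS1 (threonine) followed at 145 ± 5.63 and the scaffold gene EEF1E1 at 138 ± 2.42 CPM per kb (SD, n = 2). Among cytosolic enzymes LARS1 was lowest, at 19.5 ± 4.47 CPM per kb (SD, n = 2). The highest mitochondrial enzyme was CARS2 (cysteine), at 44.5 ± 4.94 CPM per kb, and the lowest was AARS2 (alanine), at 1.82 CPM per kb in both control libraries. Of the 10 highest members 9 were cytosolic enzymes and 0 were mitochondrial, and of the 10 lowest 9 were mitochondrial. Many adjacent ranks were not resolved: of the 37 pairs of neighbours in this order, 13 had control values that did not overlap and 24 had values that did.

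For 13 amino acids the members hold a cytosolic and a mitochondrial enzyme, each the product of 1 gene. In 12 of these 13 pairs the cytosolic mRNA was the more abundant per length in the control libraries, with a median ratio of 6.05. The widest gap was that of threonine, with TARS1 at 35.5 times TARS2, followed by alanine with AARS1 at 24.2 times AARS2. The histidine enzymes were close, with HARS1 at 1.21 times HARS2. For cysteine the order was reversed in the mean, with CARS1 at 38.6 and CARS2 at 44.5 CPM per kb. The ratio of CARS1 to CARS2 was 1.02 in control replicate 1 and 0.735 in control replicate 2, so this order did not hold in both libraries.

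In the comparison of the anti-GAA with the control ASO, the replicate number was not in the model. None of the 38 members passed the threshold of an adjusted p under 0.05, by edgeR's quasi-likelihood test or by DESeq2. The background was as low, with 0.0% of the 15116 tested genes called lower and 0.0% called higher by edgeR, and 0.0198% lower and 0.0% higher by DESeq2. At an unadjusted p under 0.05 in edgeR, 1 member was higher (GARS1) and 1 was lower (FARS2), against 1.02% of tested genes higher and 3.46% lower, and DESeq2 gave the same 2 genes against 0.681% higher and 2.05% lower. The next smallest unadjusted p in edgeR was 0.136 (PARS2), and the adjusted p was 0.950 for GARS1, 0.964 for FARS2 and 0.996 or more for the other members. Of the 38 log2 fold changes (anti-GAA over control), 22 were above 0 and 16 below, where 51.6% of all tested genes were above and 48.4% below. The median was 0.04 over the members and 0.01 over all tested genes. In 33 of 38 members the difference was under 1.25-fold in either direction, and the standard error had a median of 0.21 on the log2 scale (0.18 to 0.49), so differences under 1.25-fold were not resolved with 2 libraries per condition. In an exact permutation test on any single gene, 2 against 2 libraries cannot give a two-sided p below 0.333.

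GARS1, the glycine enzyme of cytosol and mitochondria (chr7:30580533-30634033 on GRCh38), stood at 457 and 448 CPM in the anti-GAA libraries and at 303 and 285 CPM in the control libraries. Both anti-GAA values were above both control values, and the gap was wider than the spread within either condition. The fold was 1.54, with a 95% interval of 1.14 to 2.08 (log2 fold change 0.62, SE 0.18, unadjusted p = 0.0121), but the adjusted p over all tested genes was 0.950 in edgeR. The difference was 0.59 in log2 CPM between the libraries numbered 1 and 0.65 between those numbered 2. With the replicate number as a block in edgeR, the adjusted p of GARS1 was 0.0424, and 258 of the 15116 tested genes were called. When a library was left out, the log2 fold change stayed between 0.59 and 0.66, and the unadjusted p rose to 0.0747 without control replicate 2.

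FARS2, the mitochondrial phenylalanine enzyme (chr6:5261044-5829192 on GRCh38), stood at 12.02 and 13.4 CPM in the anti-GAA libraries and at 20.9 and 21.5 CPM in the control libraries. Here both anti-GAA values were below both control values. The fold was 0.601, with a 95% interval of 0.415 to 0.871 (log2 fold change -0.73, SE 0.23, unadjusted p = 0.0142), and the adjusted p in edgeR was 0.964. The difference was -0.79 in log2 CPM between libraries numbered 1 and -0.68 between those numbered 2. With the replicate number as a block in edgeR, the adjusted p of FARS2 was 0.0505. When a library was left out, the log2 fold change stayed between -0.81 and -0.65. The cytosolic enzyme for the same amino acid is a tetramer of FARSA and FARSB products. FARSA was at 217 and 118 CPM in the anti-GAA libraries and at 193 and 132 CPM in the control libraries, with a log2 fold change of 0.05 (SE 0.33), and the conditions overlapped.

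Among the other cytosolic enzymes outside the complex, NARS1 (asparagine) was at 345 and 353 CPM in the anti-GAA libraries and at 321 and 261 CPM in the control libraries, with a log2 fold change of 0.26 (SE 0.20). The conditions did not overlap, although the control libraries differed from each other by more than the gap between conditions. AARS1 (alanine) was at 207 and 165 CPM against 170 and 134 CPM, with a log2 fold change of 0.29 (SE 0.22), and here the conditions overlapped. The difference in AARS1 was nearly equal within each number, at 0.29 and 0.30 in log2 CPM, and the library numbered 1 was the higher one in both conditions. TARS1 was at 434 and 415 CPM against 398 and 377 CPM, with no overlap and a log2 fold change of 0.13 (SE 0.18). FARSB, which carries a GAA run of 9 nt, was at 252 and 226 CPM against 233 and 177 CPM, with overlap and a log2 fold change of 0.22 (SE 0.21).

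Lower values were seen for VARS1 (valine), at 117 and 118 CPM in the anti-GAA libraries and 124 and 142 CPM in the control libraries, with no overlap and a log2 fold change of -0.18 (SE 0.19). HARS1 (histidine) was at 41.5 and 48.7 CPM against 52.5 and 45.8 CPM, with a log2 fold change of -0.12 (SE 0.21), and its conditions overlapped. HARS1 shares 1090 exon bases, or 7.7% of its exon length, with WDR55 on the opposite strand, which was at 34.2 to 39.3 CPM. HARS1 and HARS2 also lie on opposite strands and share 108 exon bases. The strand setting of the counting is not stated, so the level of HARS1 is uncertain. CARS1 (cysteine) was at 114 and 80.3 CPM against 115 and 96.7 CPM, also with overlap, and its log2 fold change was -0.12 (SE 0.24). None of these 3 differences exceeded its standard error. SARS1, WARS1 and YARS1 (serine, tryptophan and tyrosine) had log2 fold changes from 0.05 to 0.22 with overlapping conditions.

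The 7 enzymes of the multisynthetase complex among the members showed no common shift, with a median log2 fold change of 0.04 and a range from -0.22 to 0.13. None of the 7 had conditions that did not overlap, against 15.5% of tested genes higher and 16.9% lower. KARS1 was at 724 and 749 CPM in the anti-GAA libraries and at 543 and 801 CPM in the control libraries, so that both anti-GAA values lay between the control values. Its log2 fold change was 0.13 (SE 0.24), and its difference was 0.41 in log2 CPM between libraries numbered 1 but -0.10 between those numbered 2. QARS1 (glutamine) was at 286 and 256 CPM against 265 and 366 CPM, with a log2 fold change of -0.22 (SE 0.22), and its differences were 0.11 and -0.52. Control replicate 2 was the highest of the 4 libraries for both KARS1 and QARS1.

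The complex enzymes whose GAA run reached 9 nt (LARS1, EPRS1, IARS1 and KARS1) were not all lower in the anti-GAA libraries. LARS1, with 14 nt, was at 91.6 and 83.8 CPM in the anti-GAA libraries and at 108 and 77.7 CPM in the control libraries (log2 fold change -0.08, SE 0.23), with overlap. EPRS1, which charges both glutamate and proline tRNA, was at 232 and 226 CPM against 230 and 215 CPM (log2 fold change 0.04, SE 0.18). IARS1 (isoleucine) was at 346 and 365 CPM against 347 and 321 CPM (log2 fold change 0.09, SE 0.18). In EPRS1 and IARS1 the libraries lay close together and the conditions overlapped. RARS1 (arginine) and MARS1 (methionine) had log2 fold changes of 0.12 (SE 0.29) and 0.02 (SE 0.19). MARS1 shares 355 exon bases with DDIT3 on the opposite strand.

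Of the 3 scaffold proteins, which hold the complex together, AIMP1 was at 102 and 74.7 CPM in the anti-GAA libraries and at 119 and 76.1 CPM in the control libraries (log2 fold change -0.15, SE 0.28), with overlap. EEF1E1 was at 172 and 147 CPM against 147 and 143 CPM (log2 fold change 0.14, SE 0.19). It shares 18.8% of its exon bases with EEF1E1-BLOC1S5 on the same strand, which had 0 counts in every library. The handling of reads that match both genes is not stated, so the level of EEF1E1 is uncertain. AIMP2 was barely detected, with 8 and 14 counts in the anti-GAA libraries and 22 and 17 in the control libraries, or 0.808 and 0.787 CPM against 1.43 and 1.00 CPM. Its log2 fold change of -0.61 had the largest standard error among the members (0.49), although the conditions did not overlap. AIMP2 shares 532 exon bases, or 29.1% of its exon length, with EIF2AK1 on the opposite strand, which was at 140 to 185 CPM. The strand setting of the counting is not stated, so reads of AIMP2 and EIF2AK1 in the shared stretch cannot be told apart here and the level of AIMP2 is uncertain.

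The 16 mitochondrial enzymes were divided in direction, with 7 above and 9 below 0 and a median log2 fold change of -0.02. PARS2 (proline) was at 7.58 and 9.44 CPM in the anti-GAA libraries and at 6.46 and 5.66 CPM in the control libraries (log2 fold change 0.50, SE 0.29), with no overlap. IARS2 (isoleucine), the most abundant of them in CPM, was at 152 and 173 CPM against 142 and 118 CPM (log2 fold change 0.32, SE 0.20), also with no overlap. The difference in both genes was larger between libraries numbered 2, at 0.72 for PARS2 and 0.55 for IARS2 in log2 CPM, than between those numbered 1, at 0.23 and 0.10. EARS2 (glutamate) was at 40.3 and 38.7 CPM against 37.2 and 30.4 CPM (log2 fold change 0.22, SE 0.21), with no overlap and a gap smaller than the spread of its control libraries.

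On the lower side, LARS2 (leucine) was at 28.7 and 27.7 CPM in the anti-GAA libraries and at 34.2 and 29.9 CPM in the control libraries (log2 fold change -0.18, SE 0.20), with no overlap. VARS2 (valine) was at 39.5 and 34.1 CPM against 40.1 and 40.7 CPM (log2 fold change -0.14, SE 0.20), where the gap between conditions was narrower than the spread of the anti-GAA libraries. AARS2 was at 7.98 and 7.92 CPM against 8.74 and 8.73 CPM (log2 fold change -0.14, SE 0.27), with no overlap and little spread within a condition. CARS2, the most abundant mitochondrial enzyme per length, was at 77.4 and 78.8 CPM against 75.4 and 88.3 CPM (log2 fold change -0.07, SE 0.20), with overlap. The other 8 mitochondrial enzymes (HARS2, MARS2, NARS2, RARS2, SARS2, TARS2, WARS2 and YARS2) had log2 fold changes from -0.14 to 0.18. SARS2 shares 48.2% of its exon bases with an overlapping gene on the same strand that had 0 counts in every library. The handling of reads that match several genes is not stated, so the level of SARS2 is uncertain.

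**Figure D1:**
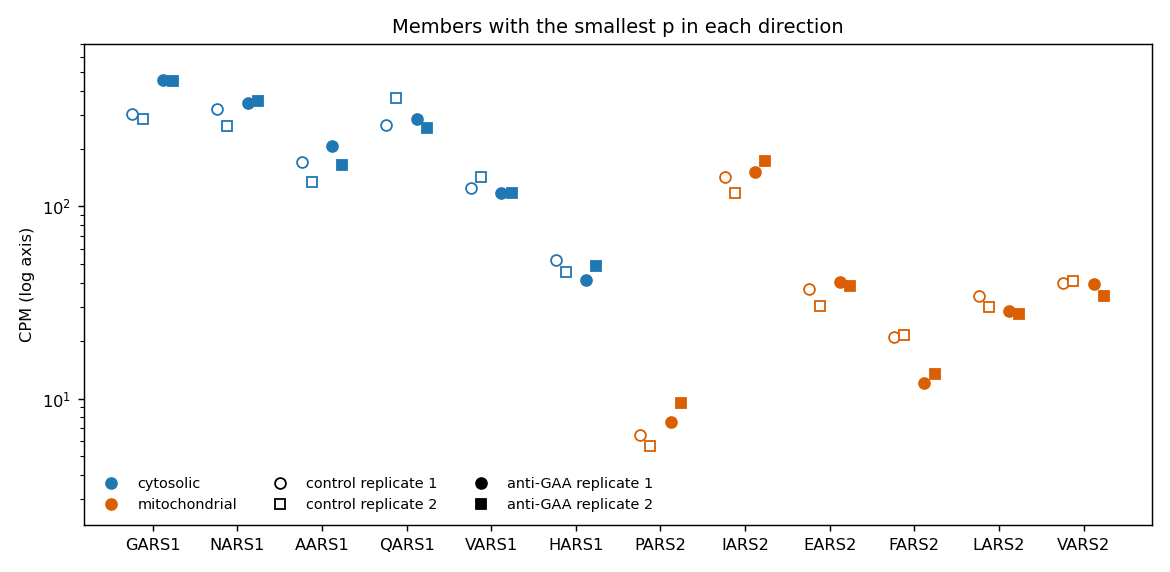
CPM on a log axis in each library for the 3 cytosolic and 3 mitochondrial members with the smallest p in each direction. Open symbols are control and filled symbols anti-GAA libraries; only GARS1 (about 450 against about 290 CPM) and FARS2 (12.02 and 13.4 against 20.9 and 21.5 CPM) have a gap much wider than the spread within both conditions.

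Set side by side, 14 of 19 cytosolic enzymes had a log2 fold change above 0 and 5 below, with a median of 0.09, whereas the mitochondrial median was -0.02. The difference between these medians was 0.11, and it depended on the libraries: it lay between -0.01 and 0.20 when a library was left out and was negative without control replicate 2. Scaling to total counts moved all genes down together, with the median of all tested genes going from 0.01 to -0.08, the cytosolic median to -0.0018 and the mitochondrial median to -0.11, and left the difference at 0.11. Members with values near 0 changed sign with that shift, namely EPRS1, FARSA, IARS1, MARS1, SARS1, NARS2, RARS2 and TARS2. Summed over the cytosolic enzymes, levels were 5126 and 4750 CPM in the anti-GAA libraries and 4615 and 4406 CPM in the control libraries, without overlap, and GARS1 made up 158 CPM of the 427 CPM by which the means differed. Without GARS1 the sums overlapped, at 4669 and 4302 against 4312 and 4121 CPM. Summed over the mitochondrial enzymes, they were 626 and 644 CPM against 620 and 595 CPM. In 9 of the 13 amino acids with an enzyme of each kind, both enzymes had the same sign.

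Conditions that did not overlap were found for 3 cytosolic enzymes higher with the anti-GAA ASO (GARS1, NARS1 and TARS1) and 1 lower (VARS1), and for 4 mitochondrial enzymes in each direction. Over all 38 members this was 7 higher (18.4%) and 6 lower (15.8%), against a background of 15.5% and 16.9% of tested genes, so the members' share was near the background. Within numbers, 13 members were higher in both pairs of libraries and 9 lower in both, against 31.8% and 30.0% of tested genes. Of the 19 cytosolic enzymes 8 were higher in both and 2 lower in both, and of the 16 mitochondrial enzymes 4 and 5. Library number moved with the cytosolic level: 12 of 19 cytosolic enzymes were higher in replicate 1 than in replicate 2 in both conditions, against 6 of 16 mitochondrial enzymes and 5112 of the 15116 tested genes, and the part of this in the differences was not tested.

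The 8 members whose longest GAA run reached 9 nt had a median log2 fold change of 0.07, with 3 of the 8 below 0 (LARS1, CARS1 and AIMP1), beside 0.03 for the 30 members with shorter runs. Over all tested genes the medians were -0.05 with a run of at least 9 nt and 0.03 with a shorter one, and -0.16 over the 374 genes with 12 nt or more. LARS1 was the only member with a run that long in its longest transcript, at -0.08. Neither GARS1 nor FARS2 had a run above 7 nt. When every annotated transcript was searched, RARS2, HARS1 and WARS1 joined, for 11 members in all.

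The 11 cytosolic enzymes known as amino acid response genes had 10 log2 fold changes above 0 and 1 below (CARS1), with a median of 0.12. The 8 other cytosolic enzymes had 4 and 4, with a median of -0.02. Of all tested genes 51.6% were above 0. Scaling to total counts also put EPRS1, IARS1, MARS1 and SARS1 below 0, from -0.0782 (MARS1) to -0.0018 (IARS1). Without control replicate 2, SARS1 (-0.02) and WARS1 (-0.16) were below 0. Both lists of cytosolic enzymes were chosen with earlier results of these data known, and the difference between them was not tested. The 7 cytosolic genes with the TGATGNAA motif had a median of 0.13 and the 9 without it one of 0.05. A list of 20 further amino acid response genes, all tested, had 17 above 0 and 3 below and a median of 0.30. However, 0 of 20 passed the adjusted threshold in the main edgeR fit or in DESeq2. At an unadjusted p under 0.05 edgeR had 3 higher and 0 lower, against 1.02% of tested genes higher and 3.46% lower. DESeq2 had 5 higher and 1 lower, against 0.681% and 2.05%. Under the replicate block 5 of the 20 were called, 4 higher and 1 lower, against 51 higher and 207 lower of 15116 tested genes. The list was chosen with earlier results of these data known, and its excess over these shares was not tested. PHGDH, the first enzyme of serine synthesis, was at 320 and 258 CPM in the anti-GAA libraries and at 184 and 163 CPM in the control libraries (log2 fold change 0.74, SE 0.21, unadjusted p = 0.00949). ATF4 mRNA was at 450 and 345 CPM against 291 and 251 CPM (log2 fold change 0.55, SE 0.22, unadjusted p = 0.0394). In both genes the anti-GAA values were above the control values.

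SESN2, a leucine sensor induced in this response, was at 136 and 71.1 CPM in the anti-GAA libraries and at 68.5 and 49.1 CPM in the control libraries (log2 fold change 0.82, SE 0.34). ASNS, asparagine synthetase, was at 453 and 376 CPM against 335 and 202 CPM (log2 fold change 0.63, SE 0.28), and CHAC1, a glutathione-degrading enzyme, at 43.9 and 15.005 CPM against 18.98 and 8.61 CPM (log2 fold change 1.09, SE 0.56). ATF3, a stress-induced transcription factor, differed in the other direction, at 193 and 92.5 CPM against 346 and 191 CPM (log2 fold change -0.91, SE 0.41). For CHAC1 and ATF3 the conditions overlapped, and the library numbered 1 was the higher one in both conditions. The sensor genes EIF2AK4, GCN1 and EIF2S1 had log2 fold changes from -0.07 to 0.06.

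Of the genes of tRNA charging and maturation that are not among the 38, DTD1, which removes D-amino acids from mischarged tRNA, was at 101 and 119 CPM in the anti-GAA libraries and at 84.4 and 70.6 CPM in the control libraries (log2 fold change 0.51, SE 0.21, unadjusted p = 0.0462). Of 12 tested genes of tRNA maturation and export, 8 were above 0 and 4 below, with 0 called at the adjusted threshold. ELAC1, a tRNA 3' processing enzyme, was at 15.6 and 19.2 CPM against 12.8 and 9.73 CPM (log2 fold change 0.63, SE 0.27, unadjusted p = 0.0517), and TSEN34, a subunit of the tRNA splicing endonuclease, at 157 and 188 CPM against 127 and 135 CPM (log2 fold change 0.40, SE 0.20). The 5 tested elongation factor genes listed under delivery of charged tRNA, exchange factors among them, had log2 fold changes from -0.22 (EEF1B2) to 0.42 (TSFM), and 0 of 5 passed. EEF1G, also listed, did not pass the filter on low counts, with 0 and 2 anti-GAA counts and 1 and 2 control counts.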

How the data were processed

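HCT116 libraries, 2 per ASO, were sequenced by the authors, who trimmed reads with Trimmomatic, aligned them to hg19 with STAR and counted reads per Ensembl gene with featureCounts. The authors deposited whole-number read counts for each gene, with no normalization, and every column of the table was used. The labels name a total RNA kit and the methods a stranded mRNA kit; the strand setting and the handling of reads matching several genes are not stated. The study's methods name DESeq2.

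Counts were tested in R 4.3.3 with edgeR 4.0.16 (filterByExpr, TMM, glmQLFit and glmQLFTest, no covariate beside the ASO), with Benjamini-Hochberg adjustment across 15116 genes and a threshold of 0.05. DESeq2 1.42.0 was an alternative. Differences within a replicate number used log2 CPM with a prior count of 2. Symbols, transcripts and coordinates came from GENCODE 44 on GRCh38 by Ensembl identifier (52181 of 63677 genes matched); no position was converted from hg19. Promoter windows came from RefSeq. The members and gene lists were chosen with earlier results of these data known. Members given by library are, for the cytosolic and the mitochondrial list, the 3 of smallest p on either side of 0, those whose GAA run reached 9 nt, the scaffold proteins, GARS1, KARS1 and the highest and lowest per length; FARSA was added after its values were seen. Pathway genes named are those with an adjusted p under 0.05 in the main fit or with the replicate number as a block, and the 2 with the smallest p per list. Some genes and sequences that meet these rules are not reported here. Alternatives were DESeq2, its size factors, total-count scaling, other filters, the replicate block, length and GC offsets, other thresholds, any transcript for GAA runs, and leaving out each library.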

Additional observations from a re-analysis of the deposited data

How the results depend on the processing

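Genes called at an adjusted p under 0.05 (0 in edgeR, which had 677 at an unadjusted p under 0.05) numbered 3 with DESeq2, 116 with no filter on low counts, 258 with the replicate block (207 lower and 51 higher, of 15116) and 304 with the replicate block and length and GC offsets, and between 0 and 18 when a library was left out (18 without control replicate 1). The labels and the column titles share a number between an anti-GAA and a control library, without saying what the number marks. The paper names duplicate experiments. With 2 pairs the numbers were not taken to pair the libraries in the main fit. Deviations from the condition means correlated between libraries of the same number (r = 0.564 across genes, which are not independent), and the common dispersion was 0.0549 without and 0.0148 with the block. Under the replicate block GARS1 had an adjusted p of 0.0424 and FARS2 one of 0.0505. With length and GC offsets beside the block these were 0.0169 and 0.0351, and no other member was called under any alternative. Of the 20 further amino acid response genes, the replicate block called 5, with ASNS (adjusted p 0.0454), CHAC1 (0.0101), PHGDH (0.0175) and SESN2 (0.0198) higher and ATF3 (0.00669) lower.

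The cytosolic median log2 fold change lay between 0.01 and 0.16, the mitochondrial median between -0.05 and 0.02, and their difference between -0.01 and 0.20 with a library left out. With scaling to total counts the mitochondrial median was -0.11 and the cytosolic one -0.0018. Over the 38 members and 12 alternatives, 417 of 456 log2 fold changes kept their sign and side of the threshold, and 36 changed sign, in 18 members whose main value was at most 0.22 in size. Total-count scaling gave EPRS1 -0.051, FARSA -0.0523, IARS1 -0.0018, MARS1 -0.0782, SARS1 -0.0397, NARS2 -0.0713, RARS2 -0.0183 and TARS2 -0.0077. DESeq2 gave HARS2 0.0105 and its size factors 0.0063. Length and GC offsets gave LARS1 0.0452 and SARS1 -0.0015, and with the block LARS1 0.0633 and FARSA -0.0077. With a library left out, ranges that crossed 0 were -0.429 to 0.203 (AIMP1), -0.388 to 0.114 (CARS1), -0.186 to 0.0577 (CARS2), -0.450 to 0.423 (FARSA), -0.0950 to 0.0962 (HARS2), -0.131 to 0.446 (KARS1), -0.290 to 0.166 (LARS1), -0.0718 to 0.115 (MARS1), -0.0301 to 0.0809 (NARS2), -0.444 to 0.0373 (QARS1), -0.205 to 0.555 (RARS1), -0.0913 to 0.243 (RARS2), -0.0179 to 0.128 (SARS1), -0.108 to 0.0400 (SARS2), -0.239 to 0.515 (TARS2) and -0.158 to 0.460 (WARS1). The cause of these changes was not tested. Where a library was left out, the spread of the lone library in its condition was taken from the other condition.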
